A study of Mus musculus with 4 samples.

Results

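The genes described here encode the peptides, processing enzymes and receptors of 3 vasoactive systems, endothelin, angiotensin and adrenomedullin. The 10 members were taken by gene symbol from a table of 48425 genes: Edn1, Ece1, Ednra and Ednrb of the endothelin system, Agt, Ace and Agtr1a of the angiotensin system, and Adm, Calcrl and Ramp2 of the adrenomedullin system. All 10 have a row in the table. RNA was sequenced from peritoneal mesothelial cells, the cells that line the abdominal cavity, of 4 C57BL/6 mice aged 10 weeks at homeostasis, labelled WT with no treatment named, with 1 library per mouse and 1 group. The cells were detached by trypsin inside the cavity at 37 °C for 20 min and sorted as CD45-, podoplanin+ and Gpm6a+. The labels do not give the sex, and all 4 samples went through this digestion.

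Each of the 3 systems runs from a peptide to a receptor on the cell surface. Endothelin-1 is made as a long precursor, trimmed by furin-like proteases and released in active form by endothelin-converting enzyme. It acts on the receptors ETA and ETB and is a strong constrictor of smooth muscle. Angiotensinogen is cut by renin to angiotensin I and by angiotensin-converting enzyme to angiotensin II, which acts mainly on the AT1 receptor. Adrenomedullin is an amidated dilator peptide. Its receptor is a pair, the G protein-coupled receptor CALCRL and a small accessory protein of the RAMP family, and the choice of RAMP sets which peptide is preferred.

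The levels below are CPM, in which the estimated count of a gene is divided by the sum of its library and scaled to a common total. The library sums were 4090224 to 4569578 estimated counts. For a gene at 0 the limit was set at 3 counts. This equals 0.657 to 0.733 CPM in single animals and 0.171 CPM over the group, and covers counting error only. The label of the cells was checked by markers. All 12 mesothelial markers lay above 1 CPM, with Upk3b at 4135 ± 236 CPM and Msln at 2257 ± 394 CPM (SD, n = 4). Of 12 blood endothelial markers 3 did by edgeR (2 by limma and by DESeq2). They were Esam at 359 ± 12.4 CPM, Kdr at 49.3 ± 14.1 CPM and Tek at 2.64 ± 3.47 CPM. Cdh5, Flt1, Emcn, Cldn5 and Erg were at 0 in every animal. Of all genes 24.7% did, a share near that of this list and of the macrophage list below. Of 10 fibroblast markers 9 did, from Dcn at 12889 ± 2116 CPM down to Pdgfra at 25.5 ± 7.56 and Dpt at 7.97 ± 6.43 CPM. Pi16 at 1.55 ± 0.860 CPM did not. Of the other lists, 7 of 12 smooth muscle and pericyte markers did, with Acta2 at 95.95 ± 42.8 CPM, and 3 of 10 macrophage markers did, Csf1r, Cd68 and Mertk. None of 8 leukocyte or 6 lymphatic endothelial markers did (0 at unadjusted p under 0.05 by edgeR, and 0 by limma with voom weights and by DESeq2). The leukocyte markers summed to 9.40, 0.896, 1.48 and 0.161 CPM in animals 1 to 4. In animal 1 Cd79a had 5.66 CPM and Ptprc 3.05 CPM.

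The start regions of the peptide genes Edn1 and Adm are shown because these members varied most between animals, as described below. Each line gives the 250 bases before the RefSeq start, 5′ to 3′ on the plus strand of GRCm38.p6, at chr13:42301226-42301475 for Edn1 and chr7:110627407-110627656 for Adm. Capitals mark the matches found.
Edn1: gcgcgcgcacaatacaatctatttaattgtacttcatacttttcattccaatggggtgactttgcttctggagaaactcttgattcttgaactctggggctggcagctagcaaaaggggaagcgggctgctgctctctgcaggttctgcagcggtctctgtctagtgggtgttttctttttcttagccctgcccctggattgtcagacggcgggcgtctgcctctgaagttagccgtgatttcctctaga
Adm: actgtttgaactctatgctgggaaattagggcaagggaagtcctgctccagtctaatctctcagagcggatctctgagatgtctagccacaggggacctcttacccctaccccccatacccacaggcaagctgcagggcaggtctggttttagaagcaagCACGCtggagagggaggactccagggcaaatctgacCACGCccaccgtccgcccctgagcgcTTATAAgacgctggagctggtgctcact

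Both strands were searched for AP-1 sites (TGANTCA), hypoxia response cores (ACGTG or GCGTG), GATA sites (AGATAA or TGATAA) and the TATA box core (TATAA). The Adm window held 2 hypoxia response cores, both on the minus strand, which begin 90 and 54 bases before the start. It also held overlapping TATA box cores on the plus and minus strands, at 27 and 28 bases before the start. The Edn1 window held no match to any of these. Of 32851 windows of the same length, 38.6% held a hypoxia response core, 22.8% a TATA box core, 16.6% a GATA site and 6.75% an AP-1 site. A match describes letters in a window and is not a measured binding site. Of the 10 members, 8 had an entry in the promoter table.

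Of the 10 members, 5 lay above 1 CPM by edgeR's one-sided quasi-likelihood test with Benjamini-Hochberg adjustment over all genes: Edn1, Ece1, Agtr1a, Adm and Ramp2. Of all genes 24.7% did, and this share includes genes with no count in any animal. The median of the mean levels was 5.50 CPM over the members and 0 CPM over all genes of the table. Calcrl, Ace and Agt had counts but did not pass, and Ednra and Ednrb had none.

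**Figure D1:**
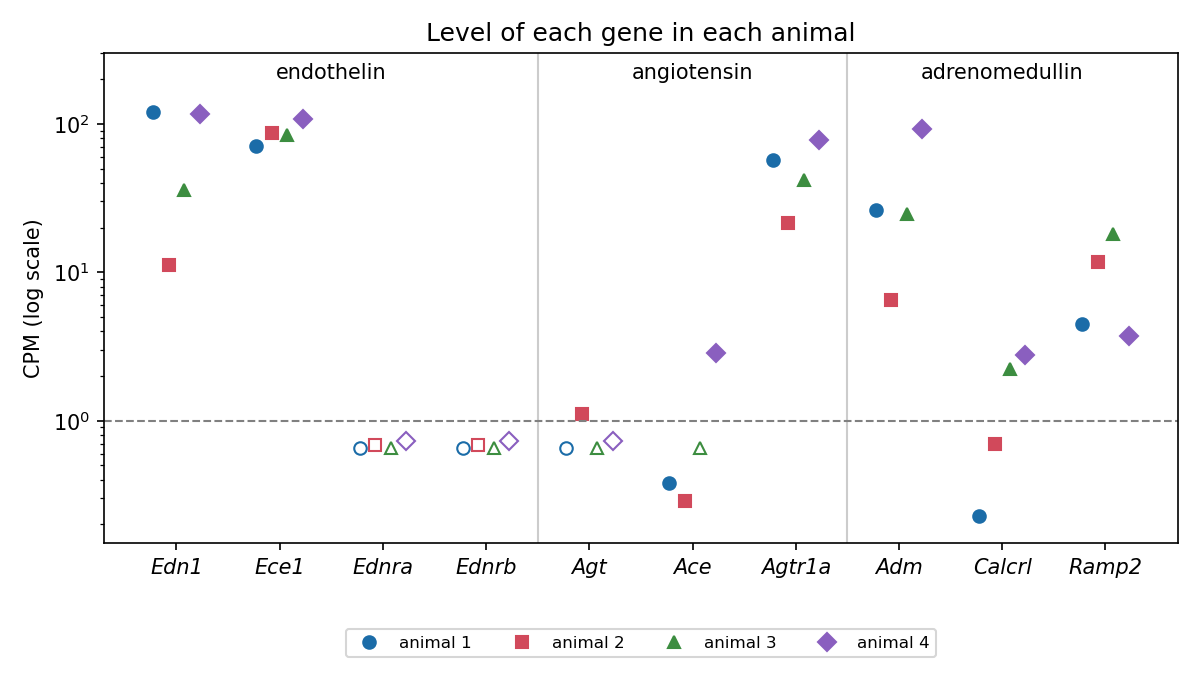
CPM of the 10 members in each of 4 animals, on a log axis. Filled symbols are measured levels, and open symbols stand at the level that 3 counts allow in a library where the gene had none. The dashed line is 1 CPM. Edn1, Ece1, Agtr1a, Adm and Ramp2 lay above it in every animal, while Ednra and Ednrb had no count in any.

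Edn1, the gene of endothelin-1, lies on chromosome 13 at 42301476 to 42307990 (GRCm38, plus strand) with 1 annotated transcript. It had 121, 11.1, 35.9 and 116 CPM in animals 1 to 4, from 553, 48.7, 164 and 474 estimated counts. Animals 1 and 4 were high and close together, animal 3 was intermediate and animal 2 was lowest, 10.9-fold below animal 1. The mean was 70.95 ± 55.7 CPM (SD, n = 4; adjusted p = 1.37e-21 by edgeR and 0.00282 by limma). Exons of the antisense gene Gm47118 overlap those of Edn1, but 0.569% of the 31-base words of Edn1 occur in transcripts of any other gene, on either strand. Reads from that small overlap cannot be told apart without a stated strand. No gene of the symbol Gm47118 is among those counted.

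Ece1, the membrane protease that releases active endothelin, lies on chromosome 4 at 137862237 to 137965229. It had 70.5, 86.2, 84.0 and 108 CPM in animals 1 to 4, the smallest spread among the members with counts in every animal. The highest animal stood 1.53-fold above the lowest, and the mean was 87.2 ± 15.5 CPM (SD, n = 4; adjusted p = 2.11e-29 by edgeR).

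The endothelin receptors were not detected. Ednra, the gene of ETA on chromosome 8 at 77663031 to 77724464, and Ednrb, the gene of ETB on chromosome 14 at 103814625 to 103844402, had 0 counts in all 4 libraries. The limit for each is 0.171 CPM over the group. Per kilobase of the longest annotated transcript, the level of Edn1 was at least 700-fold higher than that of Ednra and at least 793-fold higher than that of Ednrb, with both receptors set at 3 counts over the group.

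Of the other endothelins, Edn2 had 1.28, 4.28, 3.68 and 0.961 CPM in animals 1 to 4 and Edn3 had no count. Edn2 was higher in animals 2 and 3 than in animals 1 and 4, while Edn1 was higher in animals 1 and 4. On a scale per kilobase, log2(CPM per kb + 0.1), Edn1 exceeded Edn2 by 3.88 ± 2.58 within an animal (SD), in 4 of 4 animals. The gap was 5.86, 0.81, 2.69 and 6.16 in animals 1 to 4. The exact two-sided sign-flip permutation p was 0.125, which is the smallest that 4 animals can give, so no pair compared in this way can pass 0.05. Edn2 itself passed 1 CPM by edgeR (adjusted p = 0.0273), but not by DESeq2 (0.0792) or limma (0.0814), nor by edgeR without animal 2 (0.324) or animal 3 (0.177).

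Among the enzymes, Ece1 exceeded its relative Ece2 by 2.94 ± 0.75 on that log2 scale per kilobase, in every animal (permutation p = 0.125, exact sign-flip test). With the median instead of the longest transcript length the difference was 5.69. Ece2 averaged 8.14 ± 3.03 CPM. Its level is uncertain, since 55.8% of its 31-base words also occur in the overlapping gene Gm49333. No gene of the symbol Gm49333 is among those counted. Mme, the gene of neprilysin, which breaks down endothelin and other peptides, had 8.55, 1.17, 5.80 and 11.3 CPM in animals 1 to 4 and was lowest in animal 2, like Edn1. In the endothelin list of 9 genes, 5 lay above 1 CPM, against 24.7% of all genes: Edn1, Edn2, Ece1, Ece2 and Mme.

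In the angiotensin system the receptor was abundant and the precursor was near 0. Agtr1a, the main mouse AT1 receptor, lies on chromosome 13 at 30336441 to 30382867. It had 57.0, 21.6, 41.6 and 77.6 CPM in animals 1 to 4. Animal 4 was highest and animal 2 lowest, 3.60-fold below. The mean was 49.4 ± 23.7 CPM (SD, n = 4; adjusted p = 2.29e-23 by edgeR).

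The second AT1 gene of the mouse, Agtr1b, and the AT2 receptor gene Agtr2 had no count in any animal. Per kilobase, Agtr1a was at least 280-fold higher than Agtr1b and at least 429-fold higher than Agtr2, each set at 3 counts over the group. Agtr1a shares 3.68% of its 31-base words with other genes, Agtr1b the first among them. Mas1, the receptor gene for angiotensin 1-7, had 0.683 counts in all.

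Agt, the gene of angiotensinogen on chromosome 8 at 124556534 to 124569706, had 4.87 estimated counts in all, every one of them in animal 2. Its level there was 1.11 CPM, and it was 0 in animals 1, 3 and 4 (adjusted p = 1 by edgeR). Ren1, the renin gene, had 5.30 estimated counts, 1.02 CPM in animal 3 and 0.162 CPM in animal 4, and 0 in animals 1 and 2. At so few counts Agt and Ren1 were not distinguishable per kilobase (log2 difference -0.28 ± 2.37, exact sign-flip permutation p = 0.75, Agt higher in 1 of 4 animals). Agtr1a exceeded Agt by 6.98 ± 2.12 on the same scale, in 4 of 4 animals. Agt was at 0 in 3 of the 4, and the gap was 5.10 with a pseudocount of 0.5, 9.51 with 0.01 and 9.28 with the median transcript length.

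Ace, the gene of angiotensin-converting enzyme on chromosome 11 at 105967945 to 105989964, had 0.379, 0.288, 0 and 2.88 CPM in animals 1 to 4. Most of its 14.8 estimated counts came from animal 4, and it did not pass 1 CPM (adjusted p = 1 by edgeR).

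Other enzymes and partners of the angiotensin system were present. In the angiotensin list of 17 genes, 10 lay above 1 CPM, against 24.7% of all genes. They included Atp6ap2, the prorenin receptor, at 101 ± 17.4 CPM, Agtrap, an AT1-binding protein, at 56.1 ± 5.94 CPM, and the aminopeptidase gene Anpep at 59.1 ± 23.6 CPM. Prcp, a carboxypeptidase that acts on angiotensin II, stood at 40.7 ± 7.20 CPM. Enpep, which converts angiotensin II to angiotensin III, stood at 10.8 ± 5.67 CPM. Prep, Lnpep and Mme also passed. Cma1, the mast cell chymase gene whose product can form angiotensin II, had no count.

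In the adrenomedullin system the peptide gene lay above 1 CPM in every animal and the receptor gene was low. Adm, on chromosome 7 at 110627661 to 110629820, had 26.5, 6.53, 24.7 and 91.9 CPM in animals 1 to 4. Animal 4 was highest, animals 1 and 3 were close together, and animal 2 was lowest, 14.1-fold below animal 4. The mean was 37.4 ± 37.4 CPM (SD, n = 4; adjusted p = 3.86e-18 by edgeR and 0.00431 by limma), and 19.2 CPM without animal 4.

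Calcrl, the receptor gene, lies on chromosome 2 at 84330626 to 84425411. It had 0.227, 0.697, 2.25 and 2.78 CPM in animals 1 to 4, from 25.7 estimated counts in all, and did not pass 1 CPM (adjusted p = 0.876 by edgeR). Animals 3 and 4 were high and animals 1 and 2 low. In bulk RNA, few cells with much Calcrl and many cells with little cannot be told apart. Per kilobase Calcrl lay below Adm in 4 of 4 animals, with a log2 difference of -5.74 ± 1.30 (exact sign-flip permutation p = 0.125). Calcr, the related calcitonin receptor gene, had no count.

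Ramp2, whose product turns CALCRL into a receptor that prefers adrenomedullin, lies on chromosome 11 at 101246028 to 101259546. It had 4.51, 11.8, 18.0 and 3.75 CPM in animals 1 to 4, with animals 2 and 3 above animals 1 and 4. The mean was 9.52 ± 6.72 CPM (SD, n = 4; adjusted p = 2.63e-11 by edgeR and 0.00455 by limma). Of the 31-base words in the annotated Ramp2 transcripts, 31.7% also occur in transcripts of the neighbouring gene Vps25 on the same strand, so reads could be split between them. Vps25 itself had 81.8, 108, 111 and 81.4 CPM, also higher in animals 2 and 3 but by less, 1.37-fold from lowest to highest against 4.80-fold for Ramp2. The part of Vps25 in the Ramp2 values was not tested.

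Ramp1, whose product makes CALCRL a receptor for CGRP, had 10.2, 2.68, 1.78 and 6.68 CPM in animals 1 to 4, with animals 1 and 4 above animals 2 and 3. Per kilobase Ramp2 stood at 3.05, 7.98, 12.2 and 2.54, against 4.396, 1.15, 0.763 and 2.87 for Ramp1. Ramp2 was therefore higher in animals 2 and 3 and Ramp1 in animals 1 and 4, and over the 4 animals the log2 difference of 1.46 ± 2.14 was within the spread (exact sign-flip permutation p = 0.5). It was 0.51 with the coding length and 0.78 with the median transcript length. Ramp3 had no count, and per kilobase Ramp2 was at least 51.0-fold higher. Ramp2 exceeded Calcrl per kilobase by 3.98 ± 1.37 on the log2 scale, in all 4 animals (permutation p = 0.125).

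In the adrenomedullin list of 15 genes, 8 lay above 1 CPM, against 24.7% of all genes. Ackr3, an atypical receptor that takes up adrenomedullin and the chemokine Cxcl12, had 204, 121, 112 and 216 CPM in animals 1 to 4, with animals 1 and 4 above animals 2 and 3. Pam, the enzyme that amidates adrenomedullin and other peptides, was steady at 126 ± 20.8 CPM. Calcb, which encodes the beta form of CGRP, had 16.6, 12.8, 2.53 and 7.68 CPM. Crcp, a component of CGRP receptor signalling, stood at 30.2 ± 2.13 CPM, and Adm, Ramp2, Ramp1 and Mme were the others that passed. Adm2, the related peptide gene, had 1.02 counts, and the ratio of Adm to it per kilobase was 583, with an exact 95% interval of counting error from 106.5 to 23568.

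**Figure D2:**
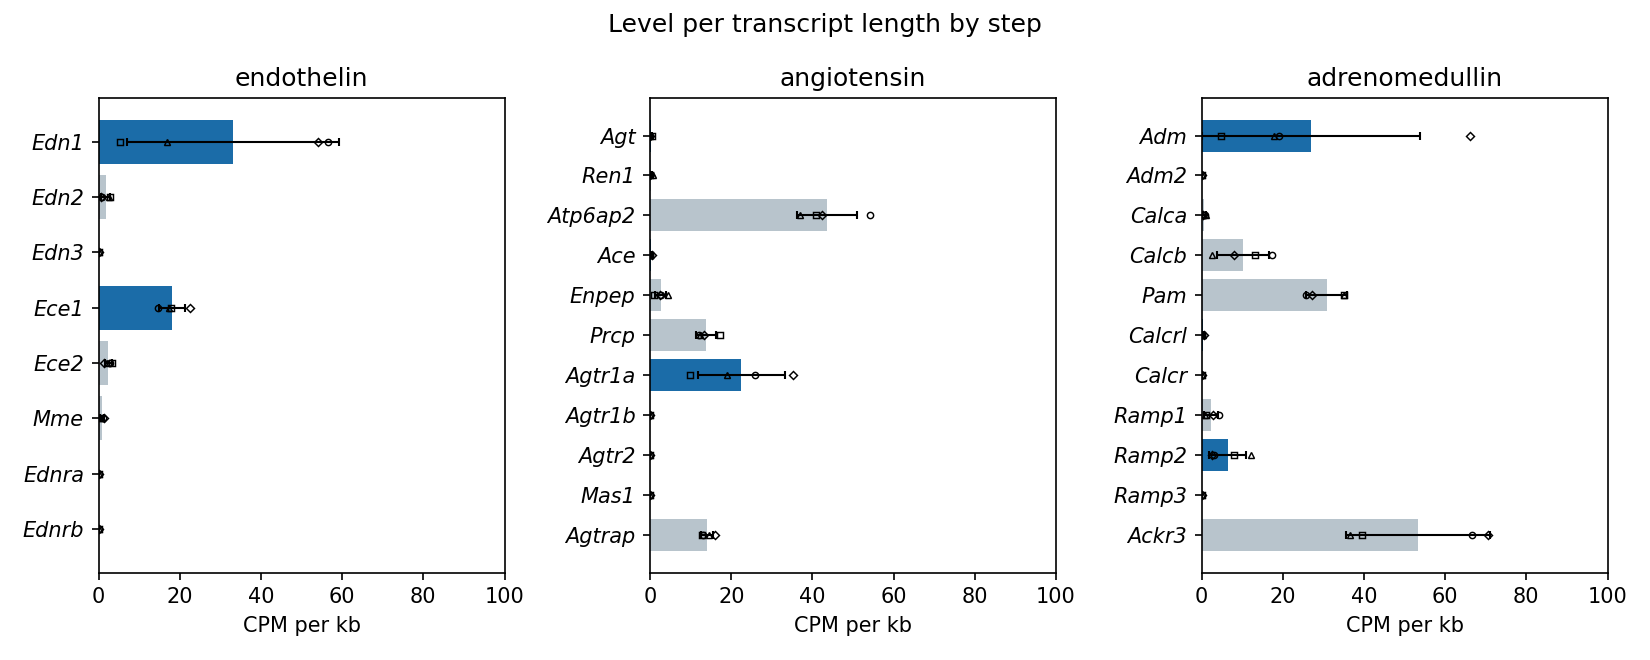
Level per kilobase of the longest annotated transcript for a selection of genes of the endothelin, angiotensin and adrenomedullin systems, ordered by step from peptide or precursor to receptor. Bars are means over 4 animals with SD (cut at 0 on the low side), small open symbols are the animals, and dark bars are members. Edn1 at 33.2 and Ece1 at 18.1 CPM per kb stand beside empty rows for Ednra and Ednrb, and Agtr1a at 22.5 stands beside Agt at 0.147.

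Per kilobase the order of the members was Edn1 at 33.2 ± 26.05, Adm at 26.9 ± 26.9, Agtr1a at 22.5 ± 10.8, Ece1 at 18.1 ± 3.22, Ramp2 at 6.44 ± 4.55, Calcrl at 0.305 ± 0.250, Ace at 0.181 ± 0.273 and Agt at 0.147 ± 0.294 CPM per kb (SD, n = 4). The comparison of neighbours among the first 4 depended on the length used, as given in the last section. With the longest transcript length they did not differ beyond their spread. The within-animal log2 difference was 0.34 ± 0.84 for Edn1 over Adm, -0.17 ± 0.82 for Adm over Agtr1a, where the mean of the logs and the order of the mean levels differ in sign, and 0.18 ± 0.76 for Agtr1a over Ece1 (exact sign-flip permutation p = 0.75, 0.625 and 0.75). Ece1 was above Ramp2 by 1.75 ± 1.14, in all 4 animals (permutation p = 0.125), and by 4.23 with the median transcript length or 3.46 without division by length. Ramp2 was above Calcrl in all 4, by the difference given above. At these counts and with the longest transcript length, Calcrl was not distinguishable from Ace, nor Ace from Agt. The log2 differences were 0.70 ± 1.25 for Calcrl over Ace and 0.37 ± 2.03 for Ace over Agt (exact sign-flip permutation p = 0.5 and 0.75). With the coding length Calcrl exceeded Ace by 1.91 (exact sign-flip permutation p = 0.125, the smallest that 4 animals can give).

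The members also differed in how much they varied between animals. The SD over animals of log2(CPM + 0.5) was 1.61 for Edn1 and 1.52 for Adm. Counting error alone, taken at the mean count over the animals, gives 0.082 and 0.114. It is larger at the lower counts of animal 2. It was 0.78 for Agtr1a, 1.02 for Ramp2 and 0.25 for Ece1. Among the 3214 genes with a mean level within 2-fold of that of Edn1, 99.7% had a smaller SD, and among 4373 such genes around Adm 99.6% did. For Agtr1a the share was 95.8% of 3904, for Ramp2 90.0% of 4087 and for Ece1 49.4% of 2765. These shares are descriptions of 4 animals and carry no test.

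**Figure D3:**
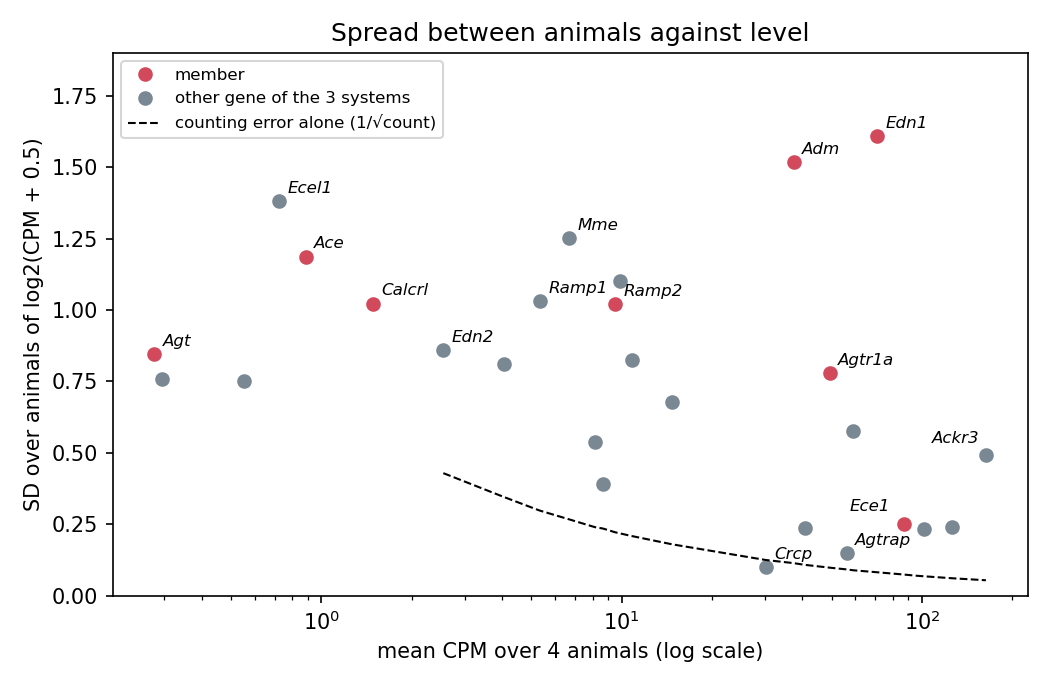
SD over 4 animals of log2(CPM + 0.5) against the mean CPM, on a log axis, for genes of the 3 systems with more than 3 counts. The dashed line is the SD that counting error alone gives at the mean count over the animals, drawn where a gene had at least 40 counts. Edn1 at 1.61 and Adm at 1.52 stand above the other genes shown, while Ece1 lies at 0.25.

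Animal 2 was lowest for Edn1, Adm and Agtr1a. On the log2 scale its deviation from the mean of the animals was -2.09, -1.87 and -1.03 for these genes in turn. Without animal 2 the SD was 0.99 for Edn1 and 1.05 for Adm, still above 98.6% and 98.4% of their neighbours in level. For Agtr1a it was 0.45 without animal 2, above 77.6%. With 1 library per animal, a difference between mice and a difference between preparations cannot be told apart.

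Genes of tissue handling and of other cell types were set beside these differences. The 10 immediate early genes, among them Fos at 4548 ± 653 CPM, summed to 11385, 12250, 10682 and 12488 CPM in animals 1 to 4. Their median deviation in animal 2 was 0.25. Egr1 was lowest in animal 2, at 933.5 CPM, and Fos was below its mean there, at 4117 CPM. The other genes of the list were above their means in animal 2. The part of tissue handling in the differences was not tested. The median of the 12 mesothelial markers deviated by -0.09, 0.22, 0.01 and -0.11 in animals 1 to 4. Within this list Krt19 had 1749, 3120, 3091 and 1239 CPM and Bnc1 79.7, 146, 149 and 102 CPM, higher in animals 2 and 3. Upk3b and Upk1b were lower in animals 2 and 3. The median of the 10 fibroblast markers moved more, by -0.25, 0.51, 0.36 and -0.54. These markers summed to 15100, 22467, 19829 and 14828 CPM, higher in animals 2 and 3, and most of the sum was Dcn. The list was mixed, with Thy1 lowest in animal 2 at 10.5 CPM and Lum lowest in animal 3 at 37.3 CPM. None of the 10 fibroblast markers was at 0. Animals 2 and 3 are also those in which Ramp2 and Edn2 were high and Edn1, Ramp1 and Ackr3 low. The part of fibroblasts in the differences was not tested. The smooth muscle and pericyte list was mixed in animal 2. Acta2, Tagln and Myh11 were lowest there, at 60.6, 7.92 and 5.50 CPM, like Edn1, Adm and Agtr1a. Kcnj8, Pdgfrb and Cspg4 were highest there, at 44.8, 7.48 and 4.67 CPM. The median of the 9 genes of this list with a mean of at least 1 CPM deviated by -0.40, -0.54, 0.29 and -0.16 in animals 1 to 4, lowest in animal 2. Its 12 markers summed to 238.7, 166.8, 214.3 and 134.8 CPM, lowest in animal 4, with Notch3 and Lmod1 at 0. The part of these cells in the low values of animal 2 was not tested. The 10 macrophage markers summed to 52.5 to 84.2 CPM, with Itgam at 0, and the 12 blood endothelial markers to 388 to 425 CPM. Most of the blood endothelial sum was Esam, at 359 ± 12.4 CPM.

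**Figure D4:**
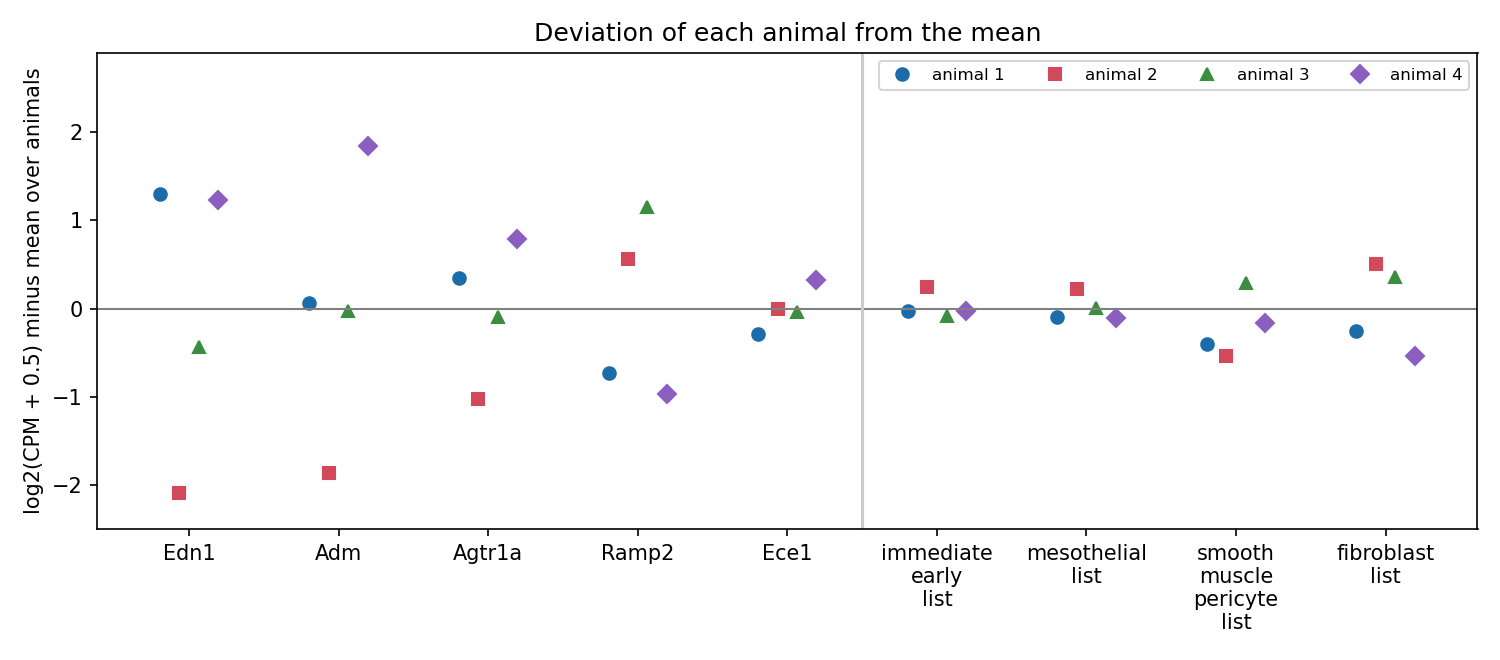
Deviation of each animal from the mean of the 4 on the log2(CPM + 0.5) scale, for 5 members and, right of the line, for the median gene of the immediate early, mesothelial, smooth muscle and pericyte, and fibroblast lists. Animal 2 lies at -2.09 for Edn1, -1.87 for Adm and -1.03 for Agtr1a, its smooth muscle and pericyte list median lies at -0.54, and its other plotted list medians lie between 0.22 and 0.51.

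Genes of the signalling step below these receptors were mostly present. Of 17 such genes 13 lay above 1 CPM, against 24.7% of all genes. Gnas, the stimulatory G protein to which CALCRL couples, stood at 191 ± 17.5 CPM. Gnaq and Gna11, the G proteins to which AT1 couples, stood at 91.7 ± 15.1 and 102 ± 9.67 CPM. Of the phospholipase C genes Plcb3 passed at 12.6 ± 6.19 CPM, while Plcb1 at 1.82 ± 1.499 CPM and Plcb4 at 1.43 ± 2.28 CPM did not. Among regulators of G protein signalling, Rgs4 passed at 8.15 ± 7.03 CPM, Rgs2 at 2.29 ± 1.28 CPM did not (adjusted p = 0.0725 by edgeR), and the pericyte gene Rgs5 had 2.98 counts.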

How the data were processed

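Sorted mesothelial cells of 4 mice, 1 library each and 1 group, were analysed. The authors deposited estimated counts per gene symbol, not divided by library size or length. Per the submitters' processing notes the tools were kallisto 0.43.1, limma 3.38.3 and edgeR 3.24.3, and the genome build was GRCm38.p5. The notes do not say which step each tool served. The unit was read from the values (99.75% to 99.95% of nonzero values per library are not whole). Library sums are given in the report, and CPM is the column value over the column sum. The level test used counts rounded to whole numbers, TMM and the quasi-likelihood fit of edgeR 4.0.16 in R 4.3.3, one-sided against 1 CPM, with Benjamini-Hochberg adjustment over 48425 genes at 0.05. The statistic was computed from deviances and tried on simulated data. These had the same dispersion for every gene, below that estimated for Edn1 and Adm, so they do not cover genes that variable. limma 3.58.1 and DESeq2 1.42.0 were alternatives. Levels of different genes were compared per kilobase of the longest GENCODE M21 (GRCm38) transcript, within an animal, with a pseudocount of 0.1 and an exact sign-flip permutation test. Of 18 gene pairs listed, 9 had enough counts in both genes for a difference, 8 had 1 gene at or under 3 counts and are given as bounds or a ratio, and 1 had neither. The result of 1 pair is not reported here. Shared sequence was taken as 31-base words also found in other genes' transcripts. The series' design text gives 4 animals for the 4 libraries, which were read as 1 animal each. Named genes are the members and the genes sharing a step with them. The members, lists and pairs were chosen with earlier results of these data known, and the neighbour comparisons and the spread without each animal were chosen after seeing the data.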

Additional observations from a re-analysis of the deposited data

Results flagged for a closer look

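Of 27 genes of the 3 systems with more than 3 counts, 4 had an animal whose gap to its nearest neighbour was, as a share of the whole range, over the 95% critical value of Dixon's test for 4 samples, which chance exceeds in about 1 of 20 groups. For Agt the gap was 1.000 of the range, with all counts in animal 2. For Ecel1, a relative of the endothelin-converting enzymes, it was also 1.000, with 12.7 estimated counts in animal 2 and 0 in the others. For Ace it was 0.869, with animal 4 high, and for Ren1 0.841, with animal 3 high. All 4 genes had fewer than 15 counts over the libraries.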

How the results depend on the processing

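The count of 5 members above 1 CPM was the same under all 10 alternatives: DESeq2 size factors, no scaling, a minimum of 10 counts, limma, DESeq2, a threshold of 2 CPM and each animal left out. The counts over all genes and over the lists stayed within 1.5 times. The size of the adjusted p depended on the method. By limma it was 0.00282 for Edn1, 3.29e-06 for Ece1, 0.000225 for Agtr1a, 0.00431 for Adm and 0.00455 for Ramp2, all larger than by edgeR. Of the alternatives run for the planned pairs, 79 kept the direction and 2 reversed, both with 1 animal left out. The exact test cannot pass 0.05 with 3 or 4 animals, so no call could change. Leaving out 1 animal in turn moved Agt minus Ren1 between -1.30 and 0.59 and Agt minus Ace between -1.20 and 0.43 on the log2 scale per kilobase. Sizes moved more than directions with the transcript length or pseudocount: beside the values in the report, Ramp2 minus Calcrl was 2.77 without division by length and Calcrl minus Adm -4.45. Among neighbours in level, Edn1 minus Adm was -0.315 with the median transcript length, 0.82 with the coding length and 0.955 without division by length. Adm minus Agtr1a was -1.82, 0.13 and -0.83 in the same order, and Agtr1a minus Ece1 was -0.71, 0.12 and -0.95. The exact sign-flip permutation p was 0.125, the smallest possible, at 0.82, 0.955, -1.82, -0.71 and -0.95. It was larger at the others. With 1 animal left out, the ranges of these pairs in turn were -0.075 to 0.54, -0.53 to 0.12 and -0.032 to 0.53. That of Ace minus Agt was -0.43 to 1.20. The cause was not tested. No comparison between groups was possible because there is 1 group. At these depths genes under about 3 counts per library cannot be ranked.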
